A study of Mus musculus with 4 samples.

Results

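Skin given microneedles alone was compared with reference skin through 2 RNA-seq libraries of mouse skin, labelled MNs and NC. Every gene with at least 1 FPKM (fragments scaled by transcript length and by the depth of the library) in at least 1 of these libraries was taken, which gave 13925 of the 25571 genes in the file. The difference of a gene was log2 of the ratio of FPKM + 1, MNs against NC, so that 1 is a 2-fold difference, and this scale understates the differences of genes with low values. The study sequenced 4 groups of mouse skin with 1 library each, labelled PRP-MNs, PRP, MNs and NC, where PRP is platelet-rich plasma, MNs are microneedles and the labels do not spell out NC. Its title names hair regrowth under microneedles that carry platelet-rich plasma. The labels give tissue and treatment for each group. Strain, sex, age, the time of harvest, the hair cycle stage, the material of the needles and whether a library pools several animals are not given in the sources used here. With 1 library per group no difference below has a replicate check, and no p-value is given.

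Microneedles are arrays of short projections that pierce the outer skin, so the tissue they enter is epidermis and the upper dermis. Epidermis renews itself from a basal layer whose cells move outward, switch from Krt5 and Krt14 to Krt1 and Krt10, and end as a cornified layer built from loricrin, filaggrin and the late cornified envelope proteins. The dermis below is made of fibroblasts and collagen and holds vessels, nerves, immune cells, sebaceous glands and the hair follicles, whose stem cells sit in the bulge beside the gland.

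Both libraries held the markers that define skin. Krt14 stood at 3339 FPKM in MNs and 3966 in NC, Krt5 at 1605 and 2348, and the remaining defining markers (Krt1, Krt10, Col1a1 and Dcn) were above 100 FPKM in both. The spacing of low values gave an estimate of 18.57 M fragments for MNs and 19.33 M for NC, and by it 3 fragments on a transcript of 1 kb came to 0.162 and 0.155 FPKM, a floor that covers counting error only. FPKM values summed to 448607 in MNs and 515230 in NC. The share of genes encoded in mitochondria was 10.9% in MNs and 13.7% in NC, and that of the top 50 genes by FPKM was 22.8% and 31.2%. All 4 measured Y-linked genes were present in each of the 4 libraries, for example Ddx3y at 21.1 FPKM in MNs and 29.6 in NC.

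The MNs library had higher values of dermal matrix, sebaceous gland, vessel and macrophage genes, and lower values of the genes of the outer epidermis. Of the 13925 genes, 2188 (15.7%) were at least 2-fold higher in MNs and 991 (7.12%) at least 2-fold lower, 22.8% in either direction. Higher genes made up 68.8% of those counted. The shares of 15.7% higher and 7.12% lower are the ones to set beside each list count below. The median difference over all genes was 0.16, the 10th percentile was -0.78 and the 90th was 1.30. After centring on that median the counts were 1729 higher and 1261 lower, with 57.8% higher. Among the 12163 genes that reached 1 FPKM in both libraries, 1583 were higher and 763 lower, so most of these counts do not come from genes that reach the minimum in 1 library alone. Differences of at least 4-fold were seen in 515 higher and 222 lower genes, and of at least 8-fold in 89 and 48.

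**Figure D1:**
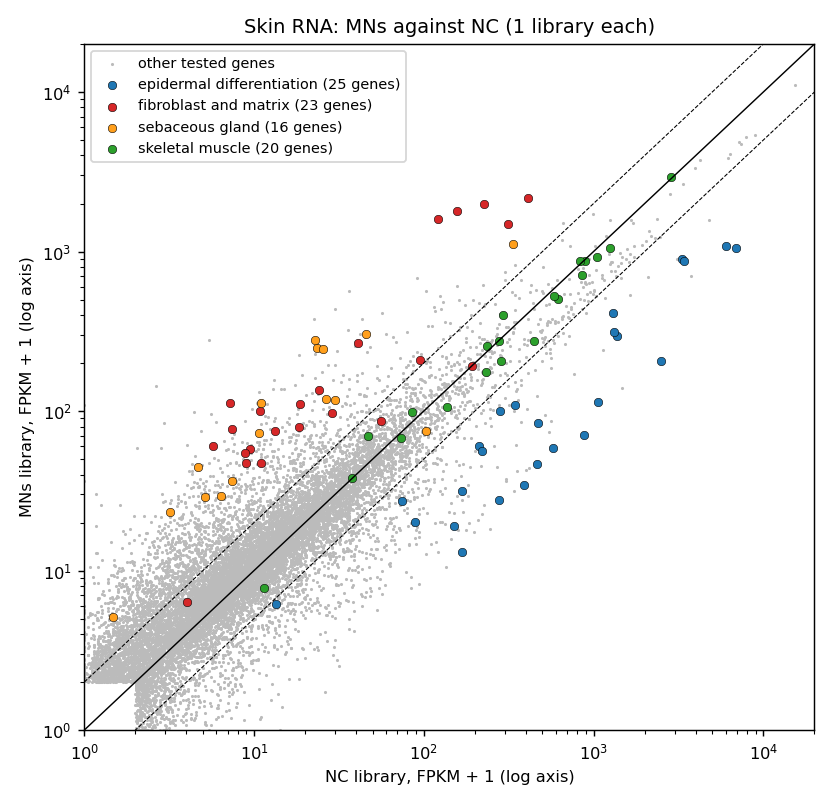
Each point is a gene with at least 1 FPKM in MNs or NC, plotted by FPKM + 1 in NC (x, log axis) and in MNs (y, log axis), with the line of equal values (solid) and 2-fold lines (dashed). All 25 epidermal differentiation genes lie under the lower 2-fold line, 20 of 23 fibroblast and matrix genes and 15 of 16 sebaceous gland genes lie above the upper one, and the 20 skeletal muscle genes lie between them.

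Sequences upstream of some genes at both ends of this range are shown first. These genes were chosen after their values were seen. Each run is the 250 bases before the RefSeq start of the gene on GRCm38.p6, read 5′ to 3′ on the strand of the gene. The search used both strands of all 32817 RefSeq promoters of this length. The searched motifs were GGGNNNTTCC (like the binding sequence of NF-kB, found in 4.65% of promoters), TTNNGCAA (like that of C/EBP, 9.57%), TGANTCA (like that of AP-1, 6.75%), TATAAA (the TATA box, 12.4%) and CCAAT (33.8%). None of these motifs contains another, although single matches can share bases. A match describes letters only, and no binding was measured here.
Promoters of genes higher in MNs follow, with capitals marking GGGNNNTTCC and TTNNGCAA in Il6 (chr5:30012864-30013113, plus strand), GGGNNNTTCC in Cxcl1 (chr5:90890995-90891244, plus strand), TTNNGCAA in Saa3 (chr7:46715677-46715926, minus strand) and CCAAT in Col1a2 (chr6:4505368-4505617, plus strand).
Il6: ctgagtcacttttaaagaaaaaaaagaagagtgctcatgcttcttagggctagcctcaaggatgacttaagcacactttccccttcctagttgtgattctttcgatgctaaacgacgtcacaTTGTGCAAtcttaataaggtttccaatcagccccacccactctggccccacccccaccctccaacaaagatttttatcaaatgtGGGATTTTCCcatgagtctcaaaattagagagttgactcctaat
Cxcl1: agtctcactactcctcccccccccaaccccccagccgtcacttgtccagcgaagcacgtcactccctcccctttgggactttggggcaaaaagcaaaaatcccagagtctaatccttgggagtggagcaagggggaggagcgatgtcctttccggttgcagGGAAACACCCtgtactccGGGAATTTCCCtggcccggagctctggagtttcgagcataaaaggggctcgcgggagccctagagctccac
Saa3: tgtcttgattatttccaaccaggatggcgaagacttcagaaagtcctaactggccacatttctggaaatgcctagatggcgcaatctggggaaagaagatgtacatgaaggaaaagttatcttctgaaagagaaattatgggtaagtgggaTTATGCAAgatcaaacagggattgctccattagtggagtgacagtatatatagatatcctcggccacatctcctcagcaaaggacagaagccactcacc
Col1a2: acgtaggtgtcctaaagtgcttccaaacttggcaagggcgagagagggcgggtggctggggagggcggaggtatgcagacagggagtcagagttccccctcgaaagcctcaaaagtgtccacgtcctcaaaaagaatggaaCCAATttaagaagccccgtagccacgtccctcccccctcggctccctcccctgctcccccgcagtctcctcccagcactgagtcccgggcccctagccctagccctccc
Promoters of genes lower in MNs follow, with capitals marking TGANTCA and TATAAA in Lor (chr3:92083143-92083392, minus strand), TGANTCA in Flg2 (chr3:93197023-93197272, plus strand) and TATAAA in Lce1m (chr3:93019062-93019311, minus strand).
Lor: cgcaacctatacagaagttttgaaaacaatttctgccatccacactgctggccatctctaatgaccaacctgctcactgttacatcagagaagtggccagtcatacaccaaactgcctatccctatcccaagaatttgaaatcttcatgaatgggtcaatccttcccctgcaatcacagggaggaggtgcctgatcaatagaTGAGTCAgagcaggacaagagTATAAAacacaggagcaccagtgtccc
Flg2: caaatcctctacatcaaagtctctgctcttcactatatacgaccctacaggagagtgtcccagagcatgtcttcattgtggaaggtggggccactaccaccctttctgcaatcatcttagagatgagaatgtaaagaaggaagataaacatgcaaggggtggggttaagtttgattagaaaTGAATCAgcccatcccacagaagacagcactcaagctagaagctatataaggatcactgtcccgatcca
Lce1m: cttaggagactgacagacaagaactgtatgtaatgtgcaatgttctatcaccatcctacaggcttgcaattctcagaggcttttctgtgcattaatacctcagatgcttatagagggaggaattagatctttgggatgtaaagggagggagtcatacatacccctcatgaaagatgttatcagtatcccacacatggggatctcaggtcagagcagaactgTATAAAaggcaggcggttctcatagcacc
Capitals mark the motifs named for each gene, and matches of the other searched motifs in these runs are left in lower case. Of 8 inflammatory genes looked up (Il6, Cxcl1, Saa3, Serpina3n, Tnfaip6, Cxcl5, Ccl2 and Ccl7), 5 had an entry in the RefSeq table. GGGNNNTTCC was in 3 of these 5, TTNNGCAA, TGANTCA and CCAAT were each in 2, and TATAAA was in 0. In the cornified envelope set of 17 genes, 16 had an entry, and 3 of these held TATAAA. GGGNNNTTCC, TTNNGCAA and TGANTCA were each in 2 of the 16, and CCAAT was in 0. Of 8 collagen chains, 6 had an entry and 1 held CCAAT.

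The 12 largest higher differences, among annotated genes of at least 5 FPKM in 1 of the libraries, were led by a second gene model of Myl12b (ENSMUSG00000117098, chr17:70974119-71002208 on GRCm38), a myosin light chain. This model was at 109 FPKM in MNs and listed at 0 in the other 3 libraries, and it overlaps the usual Myl12b model on the same strand, which stood at 46.7 in MNs and 42.4 in NC. The sources used here do not give how fragments were divided between these models, and the value of either one is uncertain. Summed over both models, Myl12b was at 156 FPKM in MNs and 42.4 in NC. Next came Cpxm1 (chr2:130390775-130397574), a carboxypeptidase-like secreted protein, at 143 FPKM in MNs, 1.65 in NC, 22.2 in PRP and 27.4 in PRP-MNs (log2 difference 5.76).

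Inflammatory mediators made up much of the rest. Saa3 (chr7:46711998-46715700), an acute-phase apolipoprotein made locally in inflamed tissue, was at 277 FPKM in MNs and 4.403 in NC, with 501 in PRP and 86.2 in PRP-MNs (difference 5.69). Cxcl5 (chr5:90759360-90761624), a neutrophil-attracting chemokine, was at 35.6 FPKM in MNs and listed at 0 in NC, with 1.74 in PRP and 244 in PRP-MNs. Il6 (chr5:30013114-30019981), the cytokine that drives the acute-phase response, stood at 24.9 FPKM in MNs and 0.258 in NC, with 1.14 in PRP and 18.6 in PRP-MNs (difference 4.36). For Il6 and Cxcl5 both libraries with microneedles were above both without, whereas Saa3 was highest in PRP. Ccl7 (chr11:82045712-82047525), a chemokine for monocytes, had 94.7 FPKM in MNs against 4.55 in NC, and its values in PRP (50.01) and PRP-MNs (504) were also above NC. Serpina3n (chr12:104406729-104414329), an acute-phase protease inhibitor, was at 377 FPKM in MNs, 21.7 in NC, 158 in PRP and 112 in PRP-MNs. Chil3 (chr3:106147554-106167564), a chitinase-like protein of macrophages, was at 24.9 FPKM in MNs, 0.614 in NC, 26.1 in PRP and 274 in PRP-MNs.

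The others of the 12 were secreted or lipid-metabolic proteins. Tnfaip6 (chr2:52038009-52056686), a hyaluronan-binding protein that is made during inflammation, was at 97.9 FPKM in MNs, 3.41 in NC, 12.98 in PRP and 27.2 in PRP-MNs. Prg4 (chr1:150449412-150466165), the lubricating proteoglycan lubricin, was at 57.8 FPKM in MNs, 1.04 in NC, 37.97 in PRP and 42.3 in PRP-MNs. Coch (chr12:51593341-51605771), the secreted protein cochlin, was at 83.1 FPKM in MNs and no higher than 6.11 in the other 3 libraries. Cyp7b1 (chr3:18071950-18243338), an oxysterol hydroxylase, was at 17.99 FPKM in MNs, 0.166 in NC, 2.597 in PRP and 4.55 in PRP-MNs. NC was the lowest of the 4 libraries for 11 of these 12 genes apart from a tie at 0, and Coch was lowest in PRP-MNs.

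**Figure D2:**
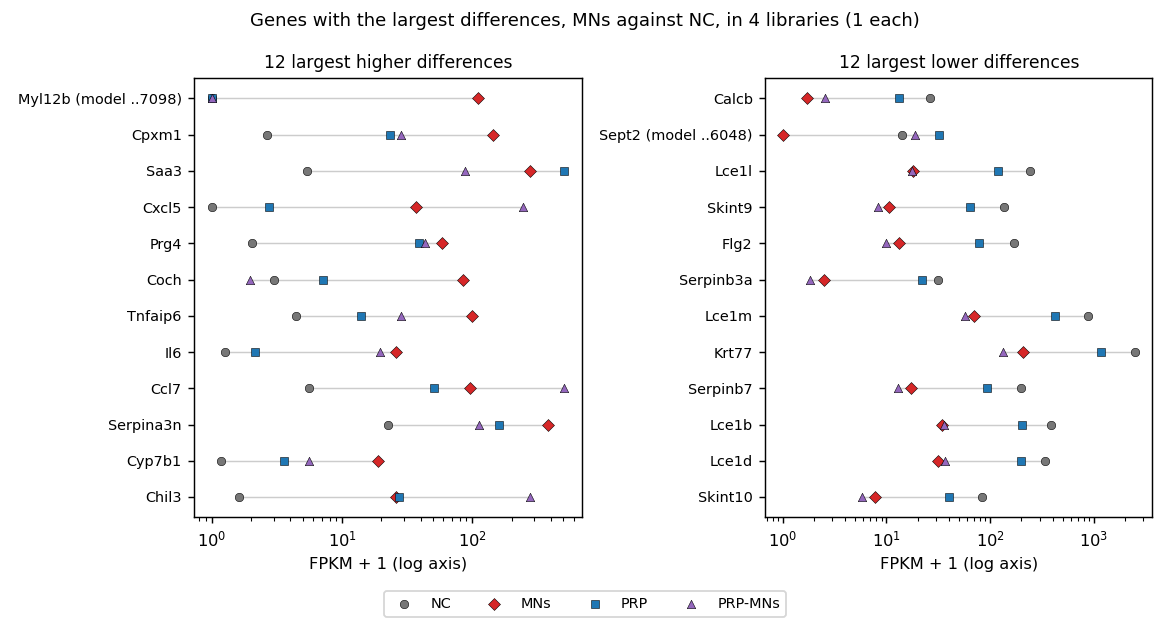
FPKM + 1 (log axis) of the 12 genes with the largest higher and the 12 with the largest lower difference, MNs against NC, in each of the 4 libraries, where each symbol is 1 library. On the right, MNs and PRP-MNs lie below PRP and NC for every gene except the Sept2 model; on the left, Saa3 is highest in PRP (501 FPKM) and Cxcl5, Ccl7 and Chil3 are highest in PRP-MNs.

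Of the 12 largest lower differences, 8 were genes of the upper epidermis (4 late cornified envelope genes, 2 Skint genes, Flg2 and Krt77), and a further pair were serpins. Calcb (chr7:114718643-114723365), which encodes the neuropeptide beta-CGRP, was at 0.733 FPKM in MNs, 25.3 in NC, 12.3 in PRP and 1.57 in PRP-MNs (difference -3.92). Krt77 (chr15:101858731-101869705), a keratin of the suprabasal epidermis and sweat ducts, was at 205 FPKM in MNs and 2482 in NC, with 1182 in PRP and 132 in PRP-MNs (difference -3.59). Flg2 (chr3:93197278-93221391), a filaggrin-like cornified layer protein, was at 12.1 FPKM in MNs, 167 in NC, 76.8 in PRP and 8.93 in PRP-MNs (difference -3.68). Serpinb7 (chr1:107399655-107452689), a protease inhibitor of the upper epidermis, was at 16.4 FPKM in MNs and 197 in NC. Serpinb3a (chr1:107045587-107052303), of the same protein family, was at 1.52 and 30.6 FPKM. In each of these 5 genes NC was highest, PRP came next, and the libraries with microneedles were lowest. One Sept2 model (ENSMUSG00000116048), which encodes a septin, was at 0.00788 FPKM in MNs, under the floor of 3 fragments, and at 13.2 in NC, but it overlaps a second Sept2 model on the same strand that stood at 69.6 in MNs and 41.1 in NC. Summed over both Sept2 models the values were 69.6 and 54.3 FPKM, so the sum over models differed far less than the single model.

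All 25 measured epidermal differentiation genes were at least 2-fold lower in MNs, beside 7.12% of all genes, with a median difference of -2.40 beside 0.16 over all genes. Their summed level was 5987 FPKM in MNs and 32023 in NC, with 17063 in PRP and 3432 in PRP-MNs. Krt2, the remaining gene of the list, was under 1 FPKM in both. The early suprabasal keratin Krt10 was at 1079 FPKM in MNs and 6056 in NC, with 3428 in PRP and 475 in PRP-MNs (difference -2.49). Its partner Krt1 was at 900.5 FPKM in MNs and 3317 in NC (difference -1.88). Lor, loricrin, which makes up most of the cornified envelope, was at 113 and 1058 FPKM (difference -3.21). Filaggrin (Flg), which packs keratin filaments in the cornified layer, was at 296 and 1382 FPKM (difference -2.22). Values of the secreted proteins of the spinous and granular layers went the same way: Krtdap was at 1050.5 FPKM in MNs and 6947 in NC. Casp14, a protease of the cornified layer, was at 30.6 and 166 FPKM (difference -2.40). The transglutaminases, which cross-link the envelope, had smaller differences than these genes, with Tgm1 at 26.2 and 73.6 FPKM (-1.45) and Tgm3 at 5.14 and 12.4 (-1.12).

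A large share of these genes lies in the epidermal differentiation complex on chromosome 3 (chr3:92080271-93471980 on GRCm38). Of its 49 measured genes 36 were lower and 1 was higher, with a median of -2.15. This region and the families that follow were chosen after their values were seen. All 21 late cornified envelope (Lce) genes were lower, with a median of -3.21, from -3.74 for Lce1l to -1.10 for Lce3d. Lce1m stood at 69.4 FPKM in MNs, 880.4 in NC, 418 in PRP and 56.8 in PRP-MNs. The Lce3 genes, known from injured and psoriatic epidermis, had smaller differences than the Lce1 genes, and Lce3d was at 20.1 and 44.1 FPKM. The small proline-rich genes (Sprr), which belong to the same complex, differed less: 3 of 13 were lower and 1 was higher. Sprr1a was at 309 and 333 FPKM, and Sprr4 was the higher one at 158 and 74.9. Members of the Lce and Sprr families are close copies, so fragments may have been divided unevenly among them.

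Basal keratinocyte genes stood close together in MNs and NC. Of 12 measured genes 1 was lower and none was higher, with a median of -0.15. Dsp, desmoplakin of the desmosomes of all layers, was the lower one at 172 FPKM in MNs and 408 in NC. The stem and progenitor factor Trp63 was at 47.5 and 66.3 FPKM, and Itga6, the integrin that anchors basal cells, at 62.7 and 61.3. Epidermal genes thus differed by layer, with values of basal genes near equal and values of suprabasal genes lower in MNs. In bulk skin, fewer cells of a type and less RNA of a gene per cell cannot be told apart.

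Keratinocyte genes of wounding and hyperproliferation went in both directions. Of 15 measured genes 3 were higher and 2 lower, with a median of -0.06. These counts were near the shares over all genes, 15.7% higher and 7.12% lower. Krt6a, a keratin of wounded epidermis and of the follicle, was at 1187 FPKM in MNs and 646 in NC (difference 0.88), and Krt16, its partner, was at 671 and 715. The 3 higher genes were Il24, an IL-10 family cytokine of injured epidermis, at 8.12 and 0.130 FPKM, Plaur, the urokinase receptor, at 21.03 and 2.78, and Itga5, a fibronectin receptor chain, at 16.1 and 2.77. All 3 were higher still in PRP-MNs, where Plaur was at 110.2 FPKM. The 2 lower ones were Sprr2d at 9.35 and 35.4 FPKM and Stfa1, a cysteine protease inhibitor, at 98.3 and 274.

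**Figure D3:**
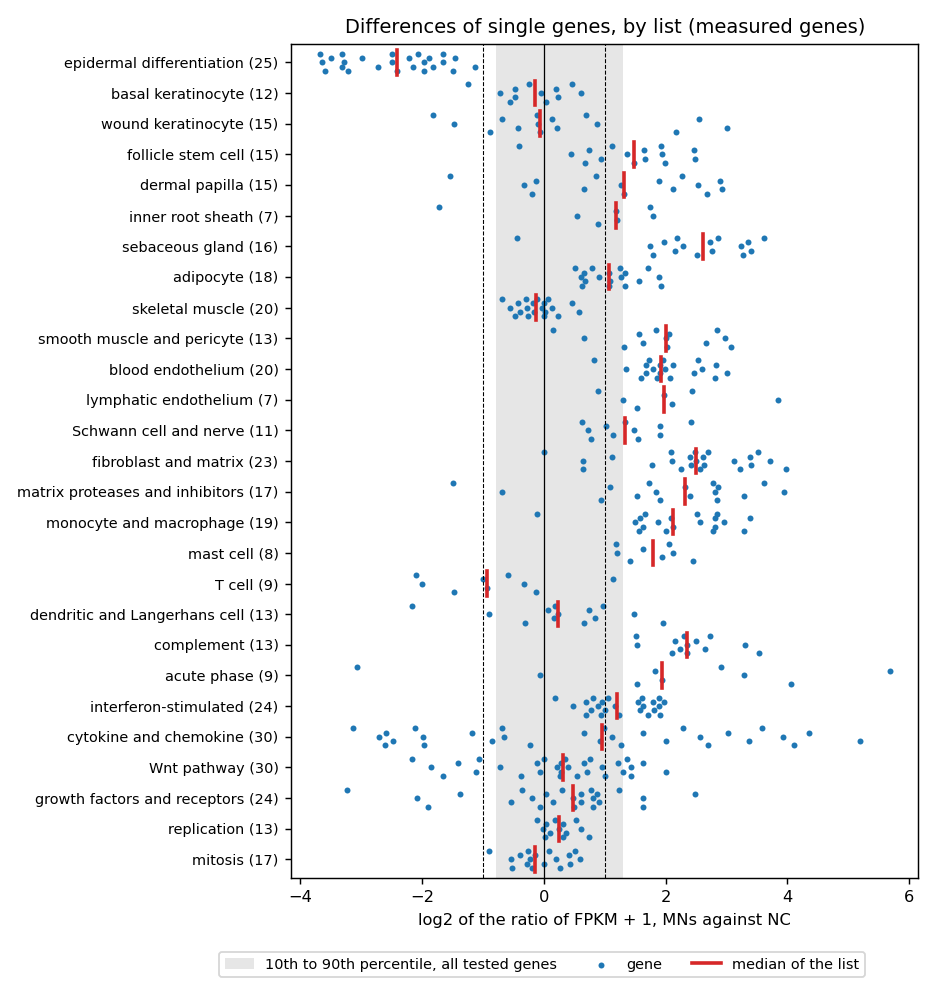
Each point is 1 measured gene of a list, placed by its log2 ratio of FPKM + 1, MNs against NC (x), with the list median in red, 2-fold limits dashed, and the 10th to 90th percentile of all genes (-0.78 to 1.30) shaded. Epidermal differentiation has its median at -2.40, fibroblast and matrix at 2.50 and sebaceous gland at 2.62, while skeletal muscle, replication and mitosis genes lie near 0.

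Follicle genes of the bulge and upper follicle were higher in MNs. All 15 genes of the follicle stem cell list were measured and 10 were higher and none lower, beside 15.7% of all genes, with a median of 1.48. Of the 15, 13 had their highest value of the 4 libraries in MNs. Lgr5, a receptor for R-spondins that marks the lower bulge, was at 6.104 FPKM in MNs, 0.270 in NC, 0.679 in PRP and 0.629 in PRP-MNs (difference 2.48). Krt15, a bulge keratin, was at 313 FPKM in MNs, 78.3 in NC, 62.999 in PRP and 12.6 in PRP-MNs (difference 1.99). Krt79, a keratin of the infundibulum and gland duct, was at 565 FPKM in MNs, 101 in NC, 77.1 in PRP and 10.6 in PRP-MNs (difference 2.47). MNs stood above each of the other libraries for these 3 genes, and for the last 2 PRP-MNs was the lowest. The bulge transcription factors had lower levels. Lhx2 was at 6.17 FPKM in MNs and 0.894 in NC, Tcf7l1 at 8.78 and 1.54, and Sox9 at 7.93 and 1.86. Lgr6, of the isthmus and of other basal cells, differed by -0.40.

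Genes of the growing hair itself were low in both libraries. Of the 13 hair shaft keratins found, 12 were under 1 FPKM in MNs and in NC, and the measured one, Krt84, was at 0.227 and 5.47 FPKM. The regulators of the hair matrix had a median of -0.52, with 1 higher and 3 lower of 10 measured, and the median was 0.068 with no filter on low values and -1.34 with a filter at 5 FPKM, so its sign depends on the filter. Among the lower ones, the homeobox gene Dlx3 was at 2.92 FPKM in MNs and 13.1 in NC and Ovol1, a zinc-finger factor of differentiating keratinocytes, at 21.999 and 78.5. Shh, the matrix signal of growing follicles, was under 0.14 FPKM in both and at 2.28 in PRP-MNs. Inner root sheath keratins were detected at low levels: Krt71 was at 9.52 FPKM in MNs, 2.15 in NC, 0.185 in PRP and 0 in PRP-MNs, and Krt25 at 6.06, 1.04, 0.0278 and 0. Both keratins were highest in MNs, second in NC and near or at 0 in the other libraries. Of 7 measured genes of that list 4 were higher and 1 (Gata3, at 10.7 and 37.6 FPKM) was lower, and 4 others were under 1 FPKM in both libraries.

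In the dermal papilla list, 15 of 20 genes were measured, and 9 of them were higher and 1 lower (median 1.32). The members with the largest differences are also expressed by other dermal or vessel cells. Crabp1, a retinoic acid binding protein, was at 63.3 FPKM in MNs and 7.47 in NC, Vcan, the proteoglycan versican, at 16.3 and 1.33, and Wif1, a secreted Wnt inhibitor, at 7.88 and 0.389. Papilla genes with a narrower pattern were low: Corin, Rspo2, Sox2 and Prom1 were under 1 FPKM in MNs and NC. Melanocyte genes were also low, with Dct, a pigment enzyme, at 8.98 FPKM in MNs and 1.04 in NC.

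Sebaceous gland genes had the highest median of the 54 lists, which were chosen with earlier results of these data known. All 16 were measured, 15 were higher in MNs and none lower, with a median of 2.62, and 15 of 16 were highest in MNs of the 4 libraries. Their summed level was 2847 FPKM in MNs, 645 in NC, 736 in PRP and 676 in PRP-MNs. Far2, which reduces fatty acids to the alcohols of wax esters, was at 249 FPKM in MNs, 22.5 in NC, 21.9 in PRP and 1.23 in PRP-MNs (difference 3.41). Awat1, a wax ester synthase, was at 112 FPKM in MNs, 10.03 in NC, 10.2 in PRP and 1.68 in PRP-MNs (difference 3.35). Elovl3, which lengthens fatty acids, was at 244 FPKM in MNs, 24.3 in NC, 25.6 in PRP and 1.99 in PRP-MNs (difference 3.27). In these 3 genes NC and PRP lay close together, MNs far above them and PRP-MNs far below. Scd1, a fatty acid desaturase also made by fat cells, was at 1121 FPKM in MNs and 333 in NC, and Pparg, the lipogenic nuclear receptor, at 28.1 and 4.12. Plin2, a coat protein of lipid droplets, was at 278 FPKM in MNs and 21.7 in NC but also at 234 in PRP-MNs. Acsbg1, an acyl-CoA synthetase, was the member without a higher value, at 74.3 and 102 FPKM.

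A further lipid gene, chosen after its values were seen, had the same order of libraries. Fa2h, a fatty acid hydroxylase, was at 228 FPKM in MNs and 21.9 in NC, with 17.2 in PRP and 2.10 in PRP-MNs. The cholesterol synthesis list differed less (4 of 15 higher, none lower, median 0.05), and Cyp51, a sterol demethylase, was at 79.8 FPKM in MNs and 79.8 in NC.

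**Figure D4:**
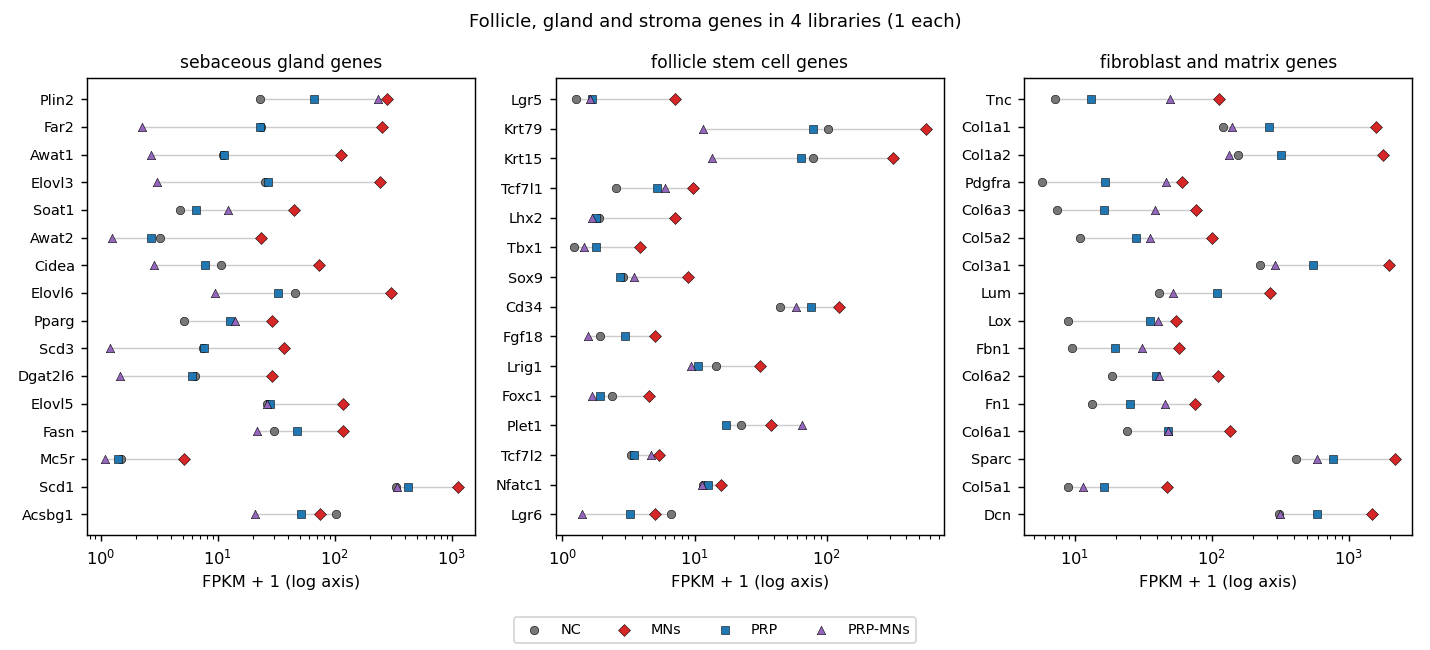
FPKM + 1 (log axis) in each of the 4 libraries for the 16 sebaceous gland genes, the 15 follicle stem cell genes and the 16 fibroblast and matrix genes with the largest difference, where each symbol is 1 library. MNs is the highest library for 15 of the sebaceous genes and 13 of the follicle genes, and PRP-MNs the lowest for Far2 (1.23 FPKM) and Krt15 (12.6).

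Fibroblast and matrix genes were higher in MNs throughout most of the list. All 23 were measured, 20 were higher and none lower, with a median of 2.50, and 21 were highest in MNs of the 4 libraries. Their summed level was 10827 FPKM in MNs, 1766 in NC, 3227 in PRP and 2598 in PRP-MNs. Col1a1 (chr11:94936224-94953042), a chain of type I collagen, was at 1589 FPKM in MNs, 120.3 in NC, 259 in PRP and 139 in PRP-MNs (difference 3.71). Col3a1, the chain of type III collagen, was at 1983 FPKM in MNs, 226 in NC, 552 in PRP and 289.6 in PRP-MNs (difference 3.13). Tnc, tenascin C of remodelling matrix, was at 112 FPKM in MNs, 6.17 in NC, 12.2 in PRP and 48.9 in PRP-MNs (difference 3.97). Pdgfra, a growth factor receptor that marks fibroblasts, was at 59.8 and 4.75 FPKM in MNs and NC, and Dcn, the proteoglycan decorin, at 1484 and 311. Postn, periostin, stood at 192 and 193 FPKM with nearly equal values, and the activated fibroblast protease Fap was at 5.34 and 3.05.

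Of 27 measured collagen chains 20 were higher and 1 lower, and they summed to 6293 FPKM in MNs and 805 in NC. The lower chain was Col7a1 of the anchoring fibrils under the epidermis, at 3.97 and 9.13 FPKM, and Col17a1 of the hemidesmosomes was within 2-fold at 93.1 and 154. Col4a1 of vessel and other basement membranes was at 101 and 8.79 FPKM, whereas Col4a5 was at 1.69 and 2.47. Of 17 matrix proteases and inhibitors 14 were higher and 1 lower (median 2.31). Timp1, a metalloprotease inhibitor, was at 74.2 FPKM in MNs and 3.89 in NC, with 72.04 in PRP and 139.6 in PRP-MNs. Mmp3, stromelysin, was at 225 and 17.4 FPKM, and Mmp2, a gelatinase of fibroblasts, at 303 and 40.98. Mmp13, a collagenase of wounds, was the lower one at 1.395 and 5.75 FPKM, with 49.1 in PRP-MNs.

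Markers of other deep tissues were set beside these values. All 20 skeletal muscle genes were within 2-fold (median -0.14) and summed to 10346 FPKM in MNs and 11090.3 in NC, and 12 of the 20 were lowest in MNs of the 4 libraries. Acta1, skeletal actin, was at 2926 and 2873 FPKM. All 18 adipocyte genes had values above NC, 11 of them at least 2-fold (median 1.08), and summed to 2470.4 and 1115 FPKM. Adipoq, the fat cell hormone adiponectin, was at 58.5 FPKM in MNs and 27.5 in NC, with 58.3 in PRP. None of these markers was at 0 in either library. The depth to which each piece of skin was cut is not given in the sources used here, and its part in the differences of dermal and epidermal genes was not tested.

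Vessel genes were higher in MNs. In blood endothelium 19 of 20 genes were higher and none lower, with a median of 1.93. Pecam1, an adhesion protein of all endothelium, was at 46.5 FPKM in MNs, 6.83 in NC, 21.9 in PRP and 79.1 in PRP-MNs (difference 2.60). Plvap, of fenestrated capillaries and venules, was at 60.7 FPKM in MNs and 6.63 in NC (difference 3.02). Selp and Sele, the selectins that slow leukocytes on activated venules, were at 9.68 and 5.64 FPKM in MNs and at 0.520 and 0.197 in NC. Lymphatic genes had 6 of 7 higher (median 1.98). Lyve1, a hyaluronan receptor of lymph vessels and some macrophages, was at 33.9 FPKM in MNs, 7.84 in NC, 6.57 in PRP and 2.91 in PRP-MNs. Smooth muscle and pericyte genes had 11 of 13 higher (median 2.01), among them Acta2, smooth muscle actin, at 146 and 16.5 FPKM, and Pdgfrb, a pericyte and fibroblast receptor, at 27.1 and 2.58. Schwann cell genes had 8 of 11 higher (median 1.34). All 5 measured red cell genes were higher, and Hbb-bs, a beta globin that has close copies, was at 619 and 223 FPKM.

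Monocyte and macrophage genes had 18 of 19 higher and none lower, with a median of 2.13. Their summed level was 1454 FPKM in MNs and 411 in NC, with 1432 in PRP and 4053 in PRP-MNs. Adgre1, the macrophage marker F4/80, was at 35.2 FPKM in MNs and 4.18 in NC, with 24.4 in PRP and 37.3 in PRP-MNs (difference 2.81). Ccr2, the receptor of recruited monocytes, was at 29.2 FPKM in MNs and 2.89 in NC, with 56.3 in PRP and 116 in PRP-MNs (difference 2.96). Ccr2 was thus lower in MNs than in PRP and PRP-MNs, although above NC, while Adgre1 was close in MNs and PRP-MNs. The scavenger receptors of resident macrophages had another order: Mrc1 was at 131 FPKM in MNs, 9.63 in NC, 21.6 in PRP and 62.4 in PRP-MNs, and Cd163 at 38.3, 6.03, 8.12 and 10.6. Both were highest in MNs. In the macrophage polarisation list 5 of 8 measured genes were higher and 1 lower (median 1.79), beside 15.7% and 7.12% of all genes. The lower one was Retnla, at 58.7 FPKM in MNs and 127 in NC. Arg1, an arginase of alternatively activated macrophages, was at 7.62 and 8.41 FPKM, and Nos2, nitric oxide synthase, was under 1 FPKM in both.

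Neutrophil genes gave a mixed picture at low levels. Of 13 genes 7 were measured, and 4 of those were higher and none lower. The granule genes Ltf, Elane, Ngp, Mpo and Camp were under 1 FPKM in both libraries, as was the defining marker Ly6g. Csf3r, the receptor for G-CSF, was at 15.9 FPKM in MNs, 0.736 in NC, 10.1 in PRP and 89.5 in PRP-MNs. S100a9, of neutrophils and of stressed keratinocytes, was at 106 FPKM in MNs and 163 in NC. Mast cell genes had 8 of 8 measured genes higher (median 1.79), such as the protease Mcpt4 at 56.6 FPKM in MNs and 12.8 in NC, and 2 further genes of that list were under 1 FPKM in both. In the platelet list 8 of 12 genes, Gp9, Gp6 and Gp1bb among them, were under 1 FPKM in both libraries, and of the 4 measured ones 3 were higher and none lower (median 1.92). The higher ones were Pf4, a platelet chemokine that macrophages also make, at 161 and 21.7 FPKM, Ppbp, a further platelet chemokine, at 6.06 and 0.315, and the integrin chain Itgb3 at 3.47 and 0.684.

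Dendritic and Langerhans cell genes mostly lay within 2-fold. Of 15 genes 13 were measured, 2 higher and 1 lower, with a median of 0.23. These counts were near the shares over all genes, 15.7% higher and 7.12% lower, and the median of all genes was 0.16. Values of 10 of the 13 were above NC. The lower one, Cd207, langerin, the defining receptor of Langerhans cells, was at 4.43 FPKM in MNs, 23.3 in NC, 11.3 in PRP and 0.970 in PRP-MNs (difference -2.16). The higher ones were Cd209a, of dermal dendritic cells, at 15.3 and 3.19 FPKM, and the lectin Clec10a at 35.5 and 12.1. The class II gene H2-Ab1 was at 152 and 145 FPKM. Of 17 genes of the T cell list 9 were measured, 3 lower, 1 higher and 5 within 2-fold (median -0.94). Cd3g, a chain of the T cell receptor complex, was at 3.21 FPKM in MNs, 17.1 in NC, 9.68 in PRP and 3.91 in PRP-MNs (difference -2.10). Cd3e, a further lower chain, was at 1.29 and 5.33 FPKM, and the third lower gene, Skint1, is a keratinocyte gene that selects epidermal T cells. Cd4, also on macrophages, was the higher one at 1.705 and 0.227 FPKM, and Cd8a and Foxp3 were under 1 FPKM in both. Skint1 was at 11.5 FPKM in MNs and 49.3 in NC, and all 11 measured Skint genes, which encode butyrophilin-like proteins of keratinocytes, were lower (median -2.63). Skint9, with the largest difference, was at 9.48 FPKM in MNs, 134 in NC, 62.3 in PRP and 7.32 in PRP-MNs. B cell and eosinophil genes were under 1 FPKM in both libraries except Jchain, an antibody joining chain, at 1.73 and 0.390 FPKM.

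Cytokines and chemokines went in both directions. Of 35 genes 30 were measured, and 14 of these were higher and 9 lower. Among the higher ones were chemokines for monocytes and neutrophils and stromal factors. Ccl2, a monocyte chemokine, was at 60.7 FPKM in MNs, 3.04 in NC, 20.8 in PRP and 350.5 in PRP-MNs (difference 3.93). Cxcl1, a neutrophil chemokine, was at 34.7 FPKM in MNs, 2.44 in NC, 2.04 in PRP and 45.5 in PRP-MNs (difference 3.38). Cxcl12, a constitutive chemokine of fibroblasts and vessels, was at 156 FPKM in MNs and 12.1 in NC (difference 3.59). Cxcl2, a further neutrophil chemokine, was at 2.36 and 2.93 FPKM in MNs and NC but at 305 in PRP-MNs, and Tnf was at 1.11 and 2.796.

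Among the lower ones were cytokines of the epidermis. Of 8 ligands and antagonists of the IL-1 and IL-36 groups 7 were lower and 1 was higher. Il1f6 (IL-36 alpha) was at 17.03 FPKM in MNs, 157 in NC, 78.4 in PRP and 7.15 in PRP-MNs (difference -3.13). Il1a, an alarm cytokine stored in keratinocytes, was at 4.17 and 27.9 FPKM, and Il1f5, the IL-36 receptor antagonist, at 43.7 and 271. The higher ligand was Il1b, of activated myeloid cells, at 52.5 FPKM in MNs and 9.94 in NC. Il18, a relative that was counted in the cytokine list, was at 22.04 and 150.0 FPKM, and Tslp, an epithelial cytokine of allergic inflammation, at 2.73 and 15.2.

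Acute-phase and complement genes had higher values in MNs. Of 9 measured acute-phase genes 7 were higher and 1 lower. Hp, haptoglobin, was at 684 FPKM in MNs, 90.1 in NC, 424 in PRP and 539 in PRP-MNs (difference 2.91). Lcn2, an iron-scavenging lipocalin, was at 64.03 and 5.65 FPKM (difference 3.29). Orm1, orosomucoid, was the lower one at 41.4 FPKM in MNs and 354 in NC, with 170.5 in PRP and 32.5 in PRP-MNs. All 13 measured complement genes were higher, with a median of 2.35, and 9 of the 13 were highest in MNs of the 4 libraries. C3, the central component, was at 125 FPKM in MNs, 19.2 in NC, 81.8 in PRP and 50.2 in PRP-MNs. C7, of the membrane attack complex, was at 50.9 and 3.46 FPKM, C4b, of the classical pathway, at 85.9 and 7.84, and the inhibitor Serping1 at 289.8 and 64.5.

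Interferon-stimulated genes were above NC but stood below the libraries with platelet-rich plasma. Of 26 genes 24 were measured, and 15 of these were higher and none lower (median 1.20). Their summed level was 325 FPKM in MNs, 123 in NC, 813 in PRP and 3424 in PRP-MNs. Isg15, a ubiquitin-like protein, was at 17.8 FPKM in MNs, 4.77 in NC, 67.5 in PRP and 427 in PRP-MNs. Cxcl10, an interferon-induced chemokine, was at 4.59 FPKM in MNs, 1.91 in NC, 12.8 in PRP and 303 in PRP-MNs. No gene of the list was highest in MNs. Class I presentation genes were near equal in MNs and NC (1 of 10 higher, 1 lower), for instance H2-K1 at 435 and 445 FPKM, and Nlrc5, an activator of class I genes, was the lower one at 5.68 and 20.5.

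In the Wnt list 30 of 33 genes were measured, and 8 were higher, 6 lower and 16 within 2-fold (median 0.32). The lower ones were 5 ligands and a receptor. Wnt7b was at 5.13 FPKM in MNs and 26.3 in NC, Wnt3 at 5.28 and 21.8, and Wnt4, which is also made in the epidermis, at 11.9 and 26.9. Wnt10a was at 8.47 and 18.8, Wnt16 at 2.07 and 7.19, and the receptor Fzd10 at 4.55 and 16.5. The higher ones were receptors, secreted inhibitors and an enhancer. The receptor Fzd1 was at 32.8 FPKM in MNs and 7.38 in NC, the inhibitors Sfrp4 at 25.1 and 8.695 and Dkk2 at 8.44 and 2.07, and the R-spondin Rspo1 at 5.84 and 1.66. Fzd2, Sfrp1, Dkk3 and Notum made up the rest, with differences from 1.01 for Notum to 1.44 for Fzd2. Notum is itself a feedback target of the pathway, whereas Axin2, a further one, was within 2-fold at 5.74 and 4.59 FPKM, as was Ctnnb1, beta-catenin, at 167 and 127. Of 7 measured hedgehog genes 2 were higher and none lower, and the transcription factor Gli2, among the higher ones, was at 1.86 and 0.192 FPKM. The target genes Gli1 (2.07 and 0.702 FPKM) and Ptch1 (4.597 and 2.58) were within 2-fold.

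In the TGF-beta and BMP list 9 of 17 genes were higher and none lower (median 1.02). Tgfb1, a ligand of repair and fibrosis, was at 34.96 FPKM in MNs, 10.1 in NC, 17.6 in PRP and 51.3 in PRP-MNs. Grem1, a BMP antagonist, was at 17.3 FPKM in MNs, 2.47 in NC, 4.31 in PRP and 1.18 in PRP-MNs, and Fst, the activin antagonist follistatin, was at 29.3, 5.49, 8.86 and 27.1. The receptors Bmpr1a (23.8 and 25.5 FPKM) and Bmpr2 (12.98 and 17.3) stood close together. Of 24 measured growth factors and receptors 4 were higher, 4 lower and 16 within 2-fold, beside 15.7% of all genes higher and 7.12% lower. Ereg, an epidermal EGF receptor ligand, was at 12.02 FPKM in MNs, 121 in NC, 61.8 in PRP and 4.81 in PRP-MNs (difference -3.23), and Btc, a further ligand of that receptor, at 2.24 and 12.7. Hgf, a growth factor made by mesenchyme, was at 5.701 FPKM in MNs, 0.198 in NC, 0.735 in PRP and 1.81 in PRP-MNs (difference 2.48), and Igf1 at 18.5 and 5.29. Fgf7, a fibroblast factor for keratinocytes that was counted in the papilla list, was at 20.5 and 2.72 FPKM. Vegfa, the vessel growth factor, was within 2-fold at 10.4 and 6.45 FPKM, Fgf5, which ends hair growth, was under 1 FPKM in both, and Pdgfa was at 6.68 and 5.27.

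None of 13 replication and 17 mitosis genes was past 2-fold, and Mki67, a marker of cycling cells, was at 17.5 FPKM in MNs and 17.4 in NC. For the short lists that follow, the shares over all genes were 15.7% higher and 7.12% lower. Of 14 immediate early genes 1 was higher (Fos, at 37.4 and 16.1 FPKM) and 2 were lower, and 2 of 10 heat shock genes were lower and none higher. In the hypoxia and glycolysis list 1 of 15 genes was higher and 1 lower. The higher one was Adm, the vessel-dilating peptide adrenomedullin, at 23.1 and 2.22 FPKM, and the oxygen-responsive gene Car9 was at 2.102 and 0.670. Among 9 genes of the unfolded protein response 2 were higher and 1 lower (median -0.02). The higher ones were Hspa5, a chaperone of the endoplasmic reticulum, at 219 and 85.9 FPKM and Sdf2l1 at 27.1 and 12.4, and Chac1 was the lower one at 4.23 and 11.3. Among 10 oxidative stress genes 2 were higher and none lower (median 0.66), Hmox1, heme oxygenase, at 108 and 35.9 FPKM and Mt1, a metallothionein, at 246 and 120.2. Of 16 clock genes 1 was lower and none higher, and Per1 was at 16.4 and 15.6 FPKM. Hox genes, which record the position of skin on the body, had 2 of 24 measured members higher and none lower (median 0.05). Cytosolic ribosomal protein genes had a median of -0.77, with 13 of 82 lower and 1 higher, and mitochondrially encoded genes a median of -0.56, with none of 13 past 2-fold. These lists carry much of the FPKM sum of each library, and FPKM values are scaled by the depth of the library.

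The pair PRP-MNs and PRP differs by the same label part and shares no library with MNs and NC, so both pairs were set side by side. Of 13311 genes measured in both, 730 were higher in both, which is 33.4% of those higher in MNs than in NC and 55.2% of those higher in PRP-MNs than in PRP. A total of 539 were lower in both, 54.4% and 51.9% of the respective lower genes. Another 98 were higher in MNs than in NC and lower in PRP-MNs than in PRP, and 13 were the reverse. PRP-MNs against PRP had 9.54% of 13861 genes higher and 7.5% lower, 17% in either direction. Epidermal differentiation had nearly the same median in both pairs (-2.40 and -2.36), and blood endothelium was on the same side (1.93 and 1.36). The fibroblast and matrix median was 2.50 for MNs against NC and -0.27 for PRP-MNs against PRP, and that of complement was 2.35 and -0.54. Interferon-stimulated genes had a median of 1.20 and 2.17. With 1 library in each group, none of these differences between pairs was tested.

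**Figure D5:**
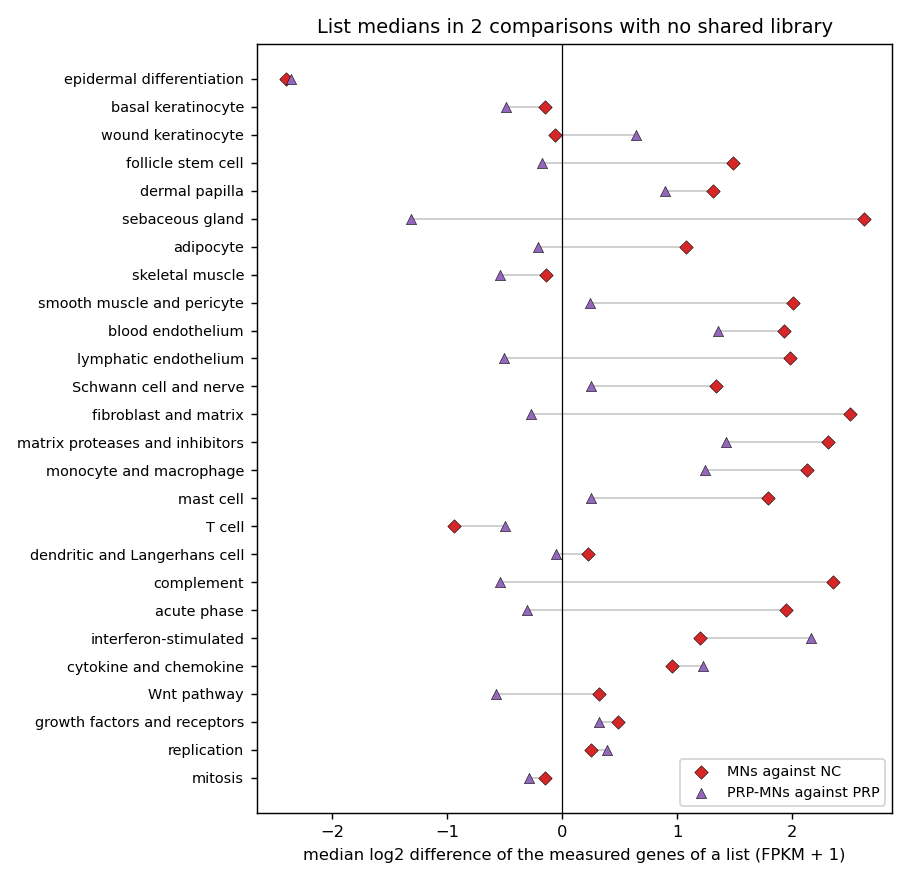
Median log2 difference of FPKM + 1 (x) over the measured genes of each list with at least 3 measured in both pairs, for MNs against NC (diamonds) and PRP-MNs against PRP (triangles). The symbols almost coincide for epidermal differentiation (-2.40 and -2.36) and lie on opposite sides of 0 for sebaceous gland (2.62 and -1.32).

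MNs also stood apart from all 3 other libraries in a set of genes. Of 14475 genes that reached 1 FPKM in any of the 4 libraries, 401 were at least 2-fold higher in MNs than in each other library and 34 at least 2-fold lower than in each. The same counts were 126 and 669 for NC, 51 and 10 for PRP, and 738 and 309 for PRP-MNs. The members of the MNs set with the largest gap to the next library included Coch, Far2, Awat1, Fa2h and Elovl3, and also Acoxl, an acyl-CoA oxidase-like gene, at 21.01 FPKM in MNs and 0.969 in NC. Masp1, a serine protease of the complement lectin pathway, was in this set at 41.2 FPKM in MNs, 3.33 in NC, 4.32 in PRP and 5.48 in PRP-MNs. Col1a1 and Col1a2 were in it as well. The highest values of type I collagen, of sebaceous lipid enzymes such as Far2 and of the bulge keratin Krt15 thus all belonged to the same library. A difference between treatments and a difference between animals or pieces of skin cannot be told apart with 1 library per group.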

How the data were processed

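RNA from the skin of mice was sequenced in 4 groups of 1 library each, from 1 μg of RNA per sample with the NEBNext Ultra kit, per the labels' protocols. The deposited values are FPKM, made by the authors and held in 1 table for all libraries. Reads were placed on GRCm38, per the submitters' processing notes, and the aligner, the quantification tool, the gene annotation and whether strand was kept are not given in the sources used here. FPKM values are scaled by the depth of a library, so abundant genes can shift all others, and genes that overlap or have close copies are uncertain. Depth was estimated from the spacing of low values. At the best spacing 20.5% (MNs) and 21.0% (NC) of them came within 0.02 of whole fragments, against 3.51% and 3.56% at others, so fragment counts were not recovered.

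Python 3.11.15, pandas 2.3.3, numpy 2.4.6 and matplotlib 3.10.9 were used. Coordinates came from GENCODE annotation of GRCm38, which held 22022 of 22036 Ensembl identifiers, and promoters from RefSeq. A set of 27 symbols that had become dates was restored, and where 2 identifiers shared a symbol the lower-numbered one was used in the lists. Genes of at least 1 FPKM in MNs or NC were compared by log2 of FPKM + 1, with 2-fold as the limit. The members and the 54 gene lists were chosen with earlier results of these data known. Named genes were the 12 highest and 12 lowest among annotated genes of at least 5 FPKM (no predicted, mitochondrial or antigen receptor genes), up to 6 of each list by size of difference, and the hedgehog, Wnt, growth factor and Y-linked genes. Other genes named, the skin markers apart, were chosen after their values were seen. The calculations were tested on simulated data. The 7 alternatives changed the pseudocount, the low-value filter, the scaling, the centring or the gene models. The report names no gene of the keratin-associated list, in which 2 of 57 were measured and both lower, and Krt85, Krt74 and Xist are not analysed here. Values of some single genes of the lists are not reported here.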

Additional observations from a re-analysis of the deposited data

Results flagged for a closer look

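The sebaceous gland list lay on opposite sides of 0 in the pairs that differ by microneedles and share no library. Its median log2 difference was 2.62 for MNs against NC and -1.32 for PRP-MNs against PRP. In the first pair 15 of 16 measured genes were at least 2-fold higher and none lower. In the second pair 1 of 15 was higher and 10 were lower. Awat2 stood at 22.2 FPKM in MNs and 2.201 in NC, but at 0.252 in PRP-MNs and 1.68 in PRP. Each group has 1 library, so the difference between the pairs was not tested.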

How the results depend on the processing

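No paired analysis was possible because each group has 1 library, and for the same reason no library could be left out. The counts of 2188 higher and 991 lower genes stayed within 1.5 times of these values under all 7 alternatives. They were 2921 and 1266 with a pseudocount of 0.1, 1594 and 774 with a filter at 5 FPKM, 2564 and 828 after scaling to the same sum without mitochondrially encoded genes, 2266 and 967 after scaling without the 50 most abundant genes, 1729 and 1261 after centring, 2091 and 803 with Ensembl identifiers alone, and 2188 and 991 with no filter. The counts with no filter could not differ from those reported. With FPKM + 1 in the ratio, a gene under 1 FPKM in both libraries cannot reach 2-fold. The median of all genes was 0.16 as reported and 0.30 and 0.18 under the respective scalings. Genes past 2-fold in both pairs numbered 1269, and 1748 with a pseudocount of 0.1 and 980 with the filter at 5 FPKM. Of 49 list medians followed, 24 were past 2-fold, and 8 of these came under 2-fold in at least 1 alternative. Some list medians shifted by more than the tolerance of 1.5-fold. With a pseudocount of 0.1 they were 2.05 for inner root sheath, 2.08 for dermal papilla, 2.58 for blood endothelium, 2.94 for matrix proteases and inhibitors, -1.53 for T cell, -1.22 for NK and cytotoxic cell, 2.54 for platelet, 1.84 for interferon-stimulated, 2.67 for acute phase and 1.71 for melanocyte genes. Without a filter, which brings in genes near 0, they were 0.55 for inner root sheath, 0.068 for hair matrix (-0.52 as reported), 0.19 for neutrophil, 0.98 for macrophage polarisation, -0.32 for T cell and 0.17 for platelet genes. With the filter at 5 FPKM they were -1.34 for hair matrix, 2.40 for dermal papilla, 0.72 for neutrophil, 2.49 for macrophage polarisation and -2.01 for T cell genes. The cause of each shift was not tested. Of 354 named genes, 227 were past 2-fold, and 16 of these came under 2-fold in at least 1 alternative. None of the 227 changed sign, but this is no check. The pseudocount and filters cannot turn the sign of a gene, and the scalings and centring move it too little for that. Depth limits what can be read of genes near 0.162 FPKM in MNs and 0.155 in NC.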

Other observations

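The families that follow lie outside the comparisons above and were chosen after their values were seen. Of 11 measured Ms4a genes, membrane proteins of macrophages, mast cells and B cells, 9 were higher in MNs and none lower, and Ms4a6d stood at 70.4 FPKM in MNs and 6.59 in NC. Of 18 measured Clec genes, C-type lectins, 12 were higher and 1 lower. Clec4a1, a receptor of myeloid cells, was at 25.7 and 2.91 FPKM, and Clec2g was the lower one at 2.27 and 15.6. Among 12 cathepsins 6 were higher and none lower. The largest difference was that of Ctsk, a collagen-degrading protease, at 434 and 28.9 FPKM, while Ctsl, made by many cells, was within 2-fold at 239.9 and 219.8. Kallikreins, the proteases that shed the cornified layer, had 5 of 9 lower and 1 higher: Klk5 was at 55.1 and 219.6 FPKM and the higher one, Klk10, at 112 and 33.1. Laminin chains had 6 of 10 higher and none lower. Lama4, of vessels, was at 24.3 FPKM in MNs and 2.53 in NC, whereas Lama3 and Lamb3, of the epidermal basement membrane, were at 9.85 and 18.7 in MNs and at 6.89 and 15.8 in NC.

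Gene models without an Ensembl identifier had the opposite balance to the rest. Of 745 such models that were measured, 97 were at least 2-fold higher in MNs and 188 at least 2-fold lower, beside 2188 and 991 over all genes.

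Mup20, a major urinary protein with many close copies, was at 5.02 FPKM in MNs and listed at 0 in the other 3 libraries.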
